A study of Homo sapiens with 12 samples.

Results

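Interferon-stimulated genes, the genes that cells switch on in response to interferons, were followed across 4 siRNA conditions in RCC4, an established human cell line derived from clear cell renal carcinoma. The 38 genes examined were listed by symbol, and a gene's value was the mean of the probe sets that name it alone. By this rule 37 of the 38 genes had a value, among 11963 genes in all, through 51 probe sets. STAT2, a subunit of the factor that carries the type I interferon signal to DNA, had no such probe set and was not analysed here. The rule uses no measured value, but the list of genes was chosen with earlier results of these data known.

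The study silenced MESH1, a metazoan relative of the bacterial SpoT hydrolase, and ATF4, the main transcription factor of the integrated stress response, alone and together. The 4 groups of 3 Affymetrix arrays were siMESH1+siATF4 (both siRNAs), siMESH1 (1 single siRNA against MESH1), siATF4 (a pool of siRNAs against ATF4) and siNT (a non-targeting siRNA). Each culture received 40 pmol of siRNA and was collected after 72 h. The share of each siRNA in the siMESH1+siATF4 cultures is not stated in the labels or methods. The siNT cells were transfected as well, no untransfected culture was part of the design, and all groups come from 1 line. The labels call the arrays of a group biological replicates, and the p-values below measure the spread between these arrays.

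Cells sense viral nucleic acids through receptors such as IFIH1 and TLR3, secrete interferons and answer them through JAK kinases, STAT proteins and interferon regulatory factors. The complex of STATs with IRF9 binds the interferon-stimulated response element (ISRE), STAT dimers bind the gamma-activated site (GAS), and the genes they switch on restrict viral replication or feed back on the pathway. Many of these genes also keep a basal level without added interferon.

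All values are log2 signals minus the siNT mean of the same probe set, so they hold differences between conditions and no level of expression. ATF4 itself was at -2.27, -2.46 and -2.23 on the siMESH1+siATF4 arrays, -0.02, -0.10 and 0.04 on the siMESH1 arrays, -2.29, -2.33 and -2.30 on the siATF4 arrays, and -0.10, 0.00 and 0.10 on the siNT arrays. Its 6 silenced arrays thus lay apart from the other 6. MESH1 was not analysed here, so the labels could not be checked on it. Without levels the renal origin of the cells could not be checked on markers either. Of 13 measured marker genes, those of leukocytes (5) and endothelium (3) had 0 called in every comparison by limma, with 1 to 4 of the 5 and 0 of the 3 at an unadjusted p under 0.05. Over all genes, 24.3% to 43.1% reached that unadjusted p. KRT18 and KRT8, epithelial keratins, were the markers called. KRT18 was lower by 0.54 in siMESH1 and higher by 0.63 in siMESH1+siATF4, each against siNT, and the first call was lost without siNT replicate 2 (-0.488) and when the arrays were scaled on 10 housekeeping genes (-0.172). The contrast between the 3' and 5' probe sets of ACTB, a sign of RNA integrity, averaged -0.300 in siMESH1+siATF4, -0.111 in siMESH1, -0.293 in siATF4 and 0.000 in siNT, while that of GAPDH averaged -0.022, 0.077, -0.090 and 0.000. The hybridisation spike-ins averaged 0.071 in siMESH1+siATF4, -0.013 in siMESH1, 0.240 in siATF4 and 0.000 in siNT. The part of these measures in the results below was not tested.

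The promoters of the members were read for the elements that interferon signalling is known to use. Windows of 250 bases before to 50 bases after the RefSeq start (GRCh38.p14) were at hand for 29 of the 37 measured members and for 9563 of all genes tested. The core of the ISRE, 2 GAAA blocks spaced by any 2 bases, searched on both strands, was found in 20 of the 29 windows (68.97%), against 284 of the 9563 (2.97%). The GAS letters, TTCNNNGAA on either strand, were found in 7 of the 29 (24.14%), against 6.64% of all. The letters TGATGNAA, also on either strand, from the element bound by ATF4 and its partners, were found in 1 of the 29 (3.45%), the GBP1 window, against 2.25% of all. These matches describe letters and not bound sites. Among the 13 members called in at least 1 comparison, 9 had a window and 8 of these held the ISRE core, against 12 of 20 windows among the 24 members called in none. IRF7, USP18, IFIT2 and TRIM22 are named here without a window.

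The 150 bases before the start are shown for 6 members on which the comparisons turn, 5' to 3' on the gene's strand, with each ISRE core that lies wholly before the start in capitals. They are GBP1 (chr1:89065209-89065358, minus strand), IFI27 (chr14:94110586-94110735), ISG20 (chr15:88638866-88639015), IFITM1 (chr11:313890-314039), ISG15 (chr1:1013347-1013496) and OAS3 (chr12:112938324-112938473), the last 5 on the plus strand.
GBP1: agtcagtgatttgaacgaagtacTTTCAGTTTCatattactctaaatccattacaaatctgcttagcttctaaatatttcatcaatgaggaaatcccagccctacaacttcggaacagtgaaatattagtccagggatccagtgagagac
IFI27: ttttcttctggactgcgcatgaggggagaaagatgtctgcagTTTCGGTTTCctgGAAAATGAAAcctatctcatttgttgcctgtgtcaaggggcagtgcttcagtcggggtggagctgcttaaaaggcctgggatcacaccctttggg
ISG20: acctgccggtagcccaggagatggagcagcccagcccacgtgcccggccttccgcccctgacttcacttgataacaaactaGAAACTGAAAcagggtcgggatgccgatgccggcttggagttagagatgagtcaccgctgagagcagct
IFITM1: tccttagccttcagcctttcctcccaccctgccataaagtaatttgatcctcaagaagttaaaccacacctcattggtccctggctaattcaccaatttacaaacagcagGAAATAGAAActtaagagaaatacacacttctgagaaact
ISG15: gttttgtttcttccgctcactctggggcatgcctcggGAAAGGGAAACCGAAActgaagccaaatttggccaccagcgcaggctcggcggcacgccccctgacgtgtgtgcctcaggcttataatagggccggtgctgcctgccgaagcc
OAS3: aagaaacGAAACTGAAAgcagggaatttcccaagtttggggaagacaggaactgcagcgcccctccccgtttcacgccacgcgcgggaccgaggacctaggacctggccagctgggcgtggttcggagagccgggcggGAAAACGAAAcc

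In GBP1 the core stood on the opposite strand, from -127 to -118 relative to the start. IFI27 held 2 cores, and its GAS letters overlapped both. The 2 cores of ISG15 overlapped each other, and IFITM1 held a further core across the start that its GAS letters overlapped. IFI35, which fell in siMESH1 cells, had GAS letters and no ISRE core, while IFI6 held 3 ISRE cores and IFI44 held 1.

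**Figure D1:**
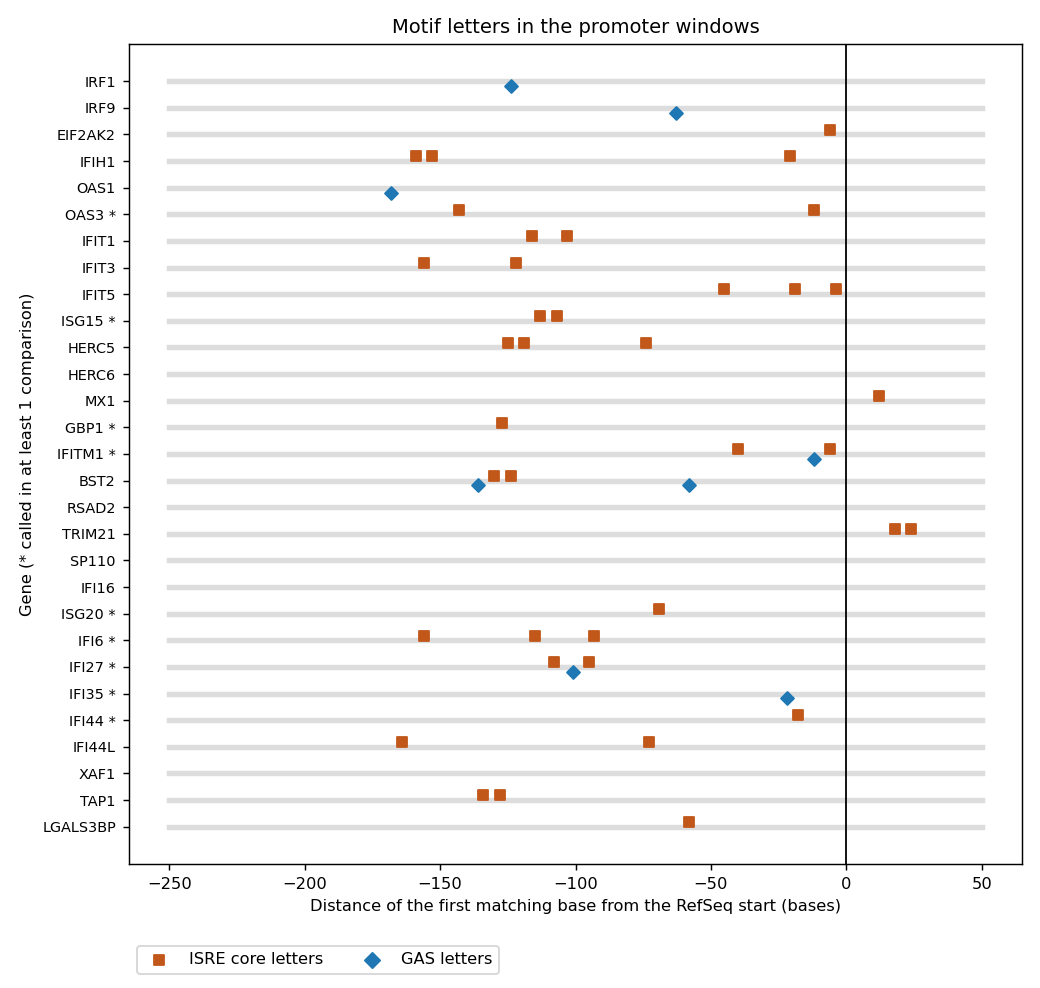
Positions of ISRE core letters (squares) and GAS letters (diamonds) in the promoter windows of 29 measured members, by distance of the first matching base from the RefSeq start in bases. Stars mark members called in at least 1 comparison, and the ISRE core was present in 20 of the 29 windows.

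A gene was called at a limma adjusted p under 0.05 over all 11963 genes with a log2 difference of at least 0.5, the fold limit that the study's methods set. Counts of genes higher or lower below are counts of such calls unless another limit is named. A gene outside them may still differ by less than the fold limit. Of the 37 members, 13 were called in at least 1 of 7 comparisons and 24 in none. The share of all genes called in at least 1 of the 7 was not computed. This split therefore only sorts the members for display. On the heat map the siATF4 and siMESH1+siATF4 arrays shared the highest values, which belonged to GBP1 and IFI27, while the lowest values lay on the siMESH1 arrays.

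**Figure D2:**
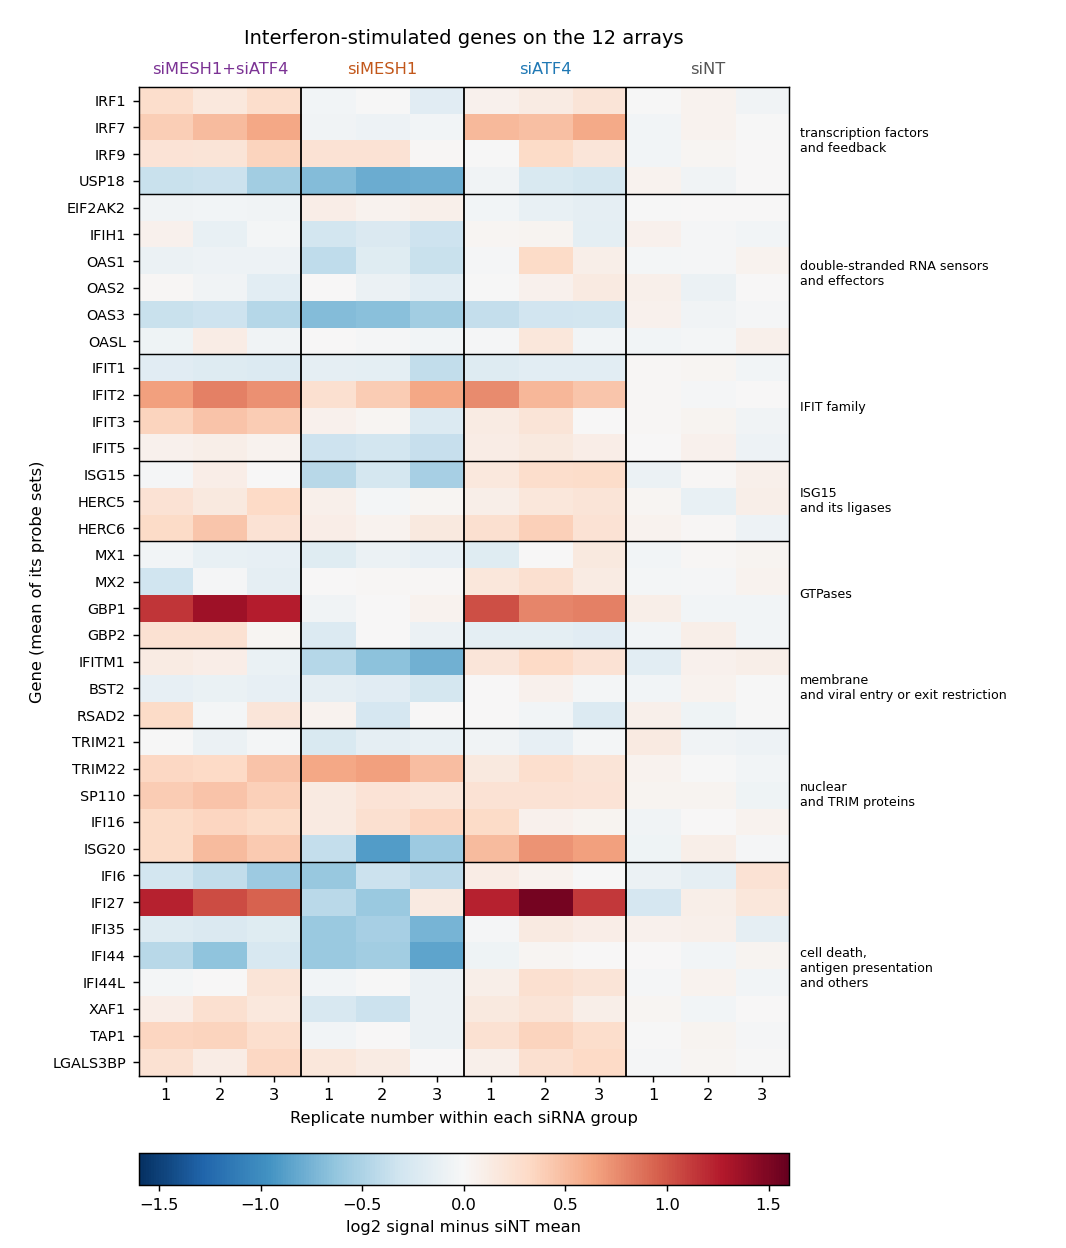
The 37 measured members (rows, grouped by role) on the 12 arrays (columns, 3 per group), coloured by log2 signal minus the siNT mean. GBP1 and IFI27 were highest on the siMESH1+siATF4 and siATF4 arrays, while USP18, OAS3 and IFI35 were lowest on the siMESH1 arrays on this scale.

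With MESH1 alone silenced, 6 members were called lower than in siNT and 1 higher. The lower were USP18, OAS3, IFI35, IFI44, IFITM1 and ISG20, and the higher was TRIM22. The 6 lower members were 16.2% of the 37, against 5.37% of all genes called lower, and the 1 higher member was 2.7%, against 2.82% of all genes. The median over the members was -0.088, against 0.028 over all genes, and 26 of the 37 lay below 0, against 5182 of all 11963 genes. Scaled on 10 housekeeping genes, which averaged -0.365 in siMESH1, the member median became 0.277. The split became 5 members higher and 0 lower, against 26.5% and 2.28% of all genes. This scaling subtracts the same value from every gene of an array, so members and all genes shift alike. The median of all genes on that scale was not computed. On that scale all 6 lower members stayed below siNT by less than the fold limit (-0.252 to -0.385), and TRIM22 stayed called at 0.955. The housekeeping list moved itself, with TFRC, HPRT1 and PGK1 called lower in siMESH1.

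USP18, a protease that strips ISG15 from proteins and damps interferon receptor signalling, was at -0.36, -0.34 and -0.56 in siMESH1+siATF4, -0.69, -0.79 and -0.78 in siMESH1, -0.06, -0.25 and -0.28 in siATF4, and 0.05, -0.06 and 0.01 in siNT. The siMESH1 arrays lay below all others. The difference of siMESH1 from siNT was -0.75 (SE 0.073, adjusted p = 4.9e-06), a 1.68-fold decrease.

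OAS3, which makes the 2'-5' linked oligoadenylates that activate RNase L, was at -0.36, -0.33 and -0.46 in siMESH1+siATF4, -0.69, -0.67 and -0.56 in siMESH1, -0.38, -0.31 and -0.29 in siATF4, and 0.07, -0.06 and -0.02 in siNT. Every siMESH1 array lay below every other array, and the siMESH1+siATF4 and siATF4 arrays overlapped. It fell by 0.64 in siMESH1 against siNT (SE 0.057, adjusted p = 2.4e-06). The other double-stranded RNA sensors and effectors were among the 24 members without a call. IFIH1 (MDA5) averaged -0.29 and OAS1 -0.32 in siMESH1, while EIF2AK2, the kinase PKR that phosphorylates eIF2-alpha, averaged 0.08.

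IFI35, a cytosolic modulator of innate signalling, was at -0.21, -0.23 and -0.20 in siMESH1+siATF4, -0.60, -0.53 and -0.74 in siMESH1, -0.02, 0.14 and 0.11 in siATF4, and 0.07, 0.08 and -0.14 in siNT. Each siMESH1 array lay below all others, and the difference from siNT was -0.63 (SE 0.073, adjusted p = 2.3e-05). IFI44, a cytosolic protein induced by type I interferon, was at -0.45, -0.65 and -0.26 in siMESH1+siATF4, -0.60, -0.56 and -0.85 in siMESH1, -0.07, 0.03 and 0.00 in siATF4, and 0.01, -0.05 and 0.04 in siNT. The siMESH1 arrays lay below siNT and overlapped siMESH1+siATF4, with a difference from siNT of -0.67 (SE 0.094, adjusted p = 1.1e-04). Its call rested on 1 of its 2 probe sets: one gave -1.36 and the other 0.01 for siMESH1 against siNT, and likewise -1.16 and 0.25 for siMESH1+siATF4 against siNT. The neighbouring gene IFI44L averaged -0.05 in siMESH1.

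IFITM1, a membrane protein that hinders viral entry, was at 0.13, 0.10 and -0.11 in siMESH1+siATF4, -0.46, -0.66 and -0.77 in siMESH1, 0.19, 0.32 and 0.23 in siATF4, and -0.17, 0.07 and 0.09 in siNT. The siMESH1 arrays were again the lowest, and IFITM1 differed by -0.63 from siNT (SE 0.093, adjusted p = 1.7e-04). A probe set shared between IFITM1 and IFITM2, and therefore outside the gene means, gave -0.42 for the same comparison. BST2 (tetherin) and RSAD2 (viperin), which act on viral release and replication, averaged -0.20 and -0.08 in siMESH1.

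ISG20, an exonuclease that degrades viral RNA, was at 0.31, 0.50 and 0.42 in siMESH1+siATF4, -0.38, -0.90 and -0.58 in siMESH1, 0.51, 0.72 and 0.66 in siATF4, and -0.07, 0.09 and -0.02 in siNT. Its siMESH1 arrays lay below siNT and its siATF4 arrays above every other array. ISG20 differed from siNT by -0.62 in siMESH1 (SE 0.109, adjusted p = 6.7e-04), which became -0.478 and lost its call without siMESH1 replicate 2. Its 2 probe sets gave -0.78 and -0.46 for this comparison.

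TRIM22, a nuclear ubiquitin ligase with antiviral activity, was the member called higher in siMESH1, at 0.62, 0.66 and 0.49. It was at 0.33, 0.32 and 0.46 in siMESH1+siATF4, 0.15, 0.27 and 0.21 in siATF4, and 0.06, -0.01 and -0.05 in siNT. The 4 groups did not overlap, and the siMESH1 difference from siNT was 0.59 (SE 0.063, adjusted p = 1.0e-05). TRIM21, an antibody-binding ubiquitin ligase, and the nuclear proteins SP110 and IFI16 were without a call. The viral DNA sensor IFI16 averaged 0.24 in siMESH1, from 0.60, 0.08 and 0.04 in its 3 probe sets.

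**Figure D3:**
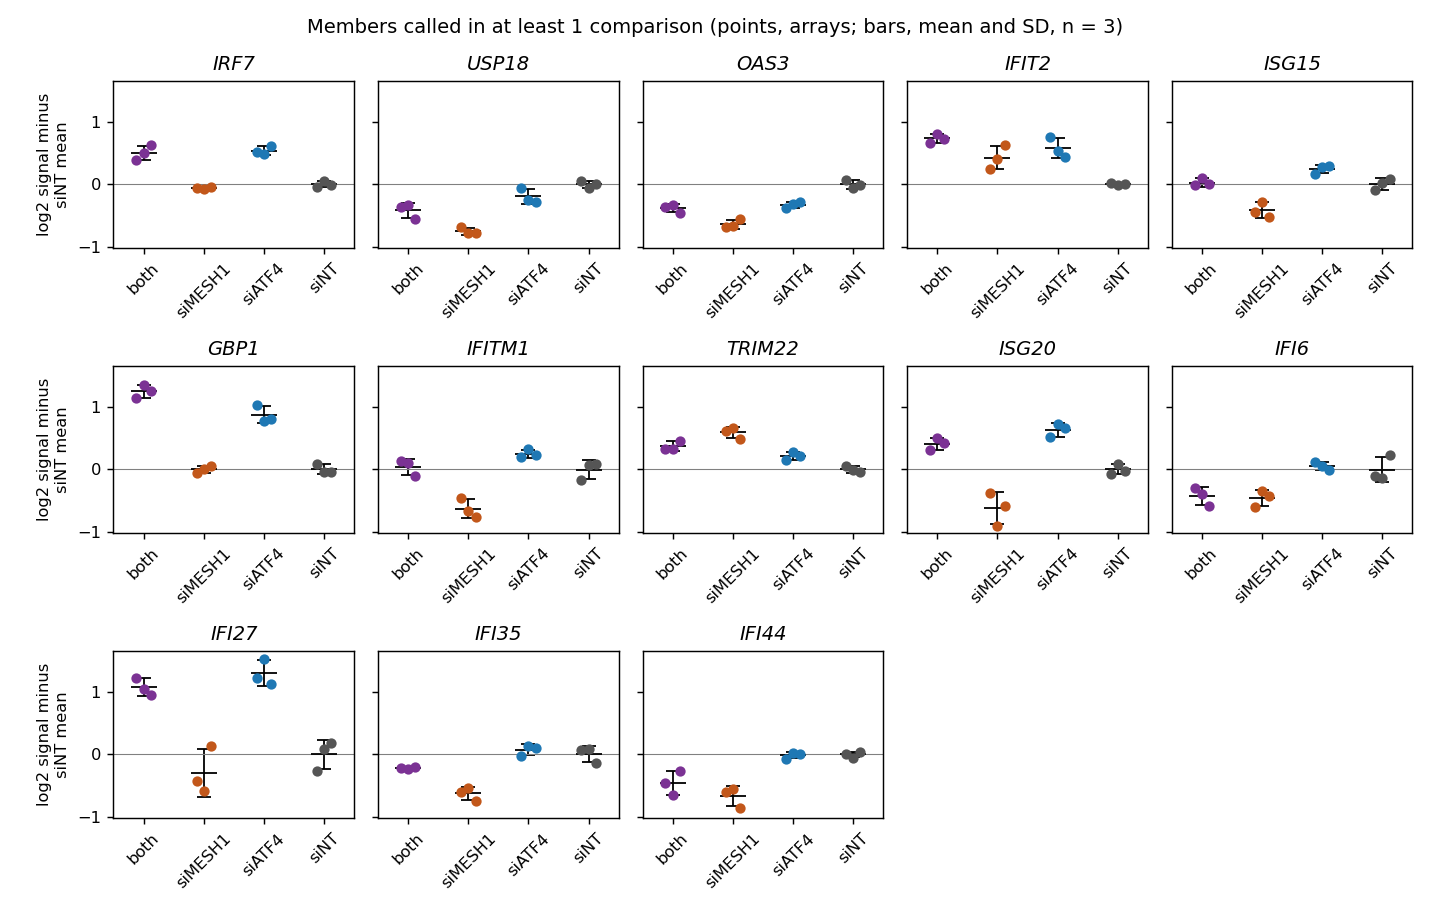
The 13 members called in at least 1 comparison, as log2 signal minus the siNT mean for each array (points), with the group mean and SD (bars, n = 3); "both" is siMESH1+siATF4. GBP1 and IFI27 were highest in both and siATF4, and USP18 and OAS3 were lowest in siMESH1 on this scale.

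With ATF4 alone silenced, 5 members were called higher than in siNT and 0 lower. IFI27, GBP1, ISG20, IFIT2 and IRF7 rose, 13.5% of the 37 against 2.49% of all genes called higher, while the genes called lower made up 4.03% of all. The paper treated genes changed by siATF4 alone as off-target effects, because unstressed RCC4 cells express little ATF4. It left them out of its count of ATF4-mediated genes. Whether the rises here were such effects was not tested. The member median was 0.137, against 0.020 over all genes. Under housekeeping scaling 5 members were higher and 0 lower, against 6.74% and 2.53% of all genes, and the member median was 0.312. It was 0.091 without _x_at and _s_at probe sets.

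IFI27, a small mitochondrial protein strongly induced by type I interferon, was at 1.23, 1.04 and 0.95 in siMESH1+siATF4, -0.43, -0.59 and 0.14 in siMESH1, 1.23, 1.53 and 1.13 in siATF4, and -0.27, 0.09 and 0.18 in siNT. The arrays with ATF4 silenced all lay above the others, and siMESH1 overlapped siNT. IFI27 was 2.45-fold higher in siATF4 than in siNT (log2 1.29, SE 0.174, adjusted p = 1.0e-04). It was the member with the widest spread within a group, at an SD of 0.382 in siMESH1.

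GBP1, a large GTPase that attacks intracellular pathogens and is a classical interferon-gamma target, was at 1.14, 1.35 and 1.26 in siMESH1+siATF4, -0.06, 0.01 and 0.05 in siMESH1, 1.03, 0.78 and 0.81 in siATF4, and 0.09, -0.04 and -0.05 in siNT. The siMESH1 and siNT arrays overlapped near 0, and the siMESH1+siATF4 arrays lay above all siATF4 arrays. Against siNT the siATF4 difference was 0.87 (SE 0.077, adjusted p = 2.6e-06), and the 2 probe sets of GBP1 gave 0.92 and 0.83. The other GTPases were without a call, and GBP2, MX1 and MX2 averaged -0.16, -0.01 and 0.19 in siATF4.

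IRF7, the transcription factor that amplifies type I interferon production, was at 0.39, 0.50 and 0.62 in siMESH1+siATF4, -0.06, -0.08 and -0.04 in siMESH1, 0.52, 0.48 and 0.61 in siATF4, and -0.04, 0.05 and -0.01 in siNT. All 6 arrays with ATF4 silenced lay above the other 6. The siATF4 difference from siNT was 0.54 (SE 0.062, adjusted p = 2.7e-05), and it became 0.498, just under the fold limit, without siATF4 replicate 3. IRF1 and IRF9, the first an activator induced by interferon-gamma and the second the DNA-binding subunit of the ISRE complex, averaged 0.14 and 0.16 in siATF4.

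Of the IFIT family, proteins that bind foreign RNA and lie side by side on chromosome 10, IFIT2 was called. It was at 0.66, 0.81 and 0.73 in siMESH1+siATF4, 0.25, 0.41 and 0.62 in siMESH1, 0.75, 0.53 and 0.44 in siATF4, and 0.02, -0.02 and 0.00 in siNT. Every silenced array lay above siNT, and the siATF4 arrays overlapped those of both other silenced groups. The siATF4 difference from siNT was 0.57 (SE 0.094, adjusted p = 4.8e-04), which was 0.484 and not called without siATF4 replicate 1. IFIT3, the nearest listed member to it, averaged 0.41 with both silenced, -0.04 in siMESH1 and 0.12 in siATF4. IFIT1, further along, averaged -0.20, -0.24 and -0.18 in the same order.

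With both genes silenced, 4 members were called higher than in siNT and 0 lower: GBP1 (1.25), IFI27 (1.08), IFIT2 (0.74) and IRF7 (0.50). They made up 10.8% of the members, against 4.4% of all genes called higher, and 5.25% of all genes were called lower. The member median was 0.073, against 0.013 over all genes. Under housekeeping scaling, 13 members were higher and 0 lower, against 15.1% and 2.93% of all genes. IRF7 lay at the limit, and its call was lost with array median centring (0.488) and without siMESH1+siATF4 replicate 3 (0.443), siNT replicate 1 (0.484) or siNT replicate 3 (0.498). Without the fold limit, 16 members were higher and 6 lower at a limma adjusted p under 0.05. The matching share of all genes was not computed. The lower ones included IFI44 (-0.45), IFI6 (-0.43), USP18 (-0.42, adjusted p = 5.3e-04) and OAS3 (-0.38, adjusted p = 1.7e-04), none called.

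Set against MESH1 silencing alone, the double silencing had 5 members called higher and 0 lower. IFI27 was higher by 1.37 (SE 0.174, adjusted p = 7.1e-05), GBP1 by 1.24 (SE 0.077, adjusted p = 1.8e-07) and ISG20 by 1.03 (SE 0.109, adjusted p = 1.6e-05). IFITM1 was higher by 0.67 and IRF7 by 0.56. These were 13.5% of the members, against 3.42% of all genes, with 2.68% of all genes called lower. Among them, IFI27, GBP1, ISG20 and IRF7 were also called higher in siATF4 against siNT. The member median was 0.232, against -0.010 over all genes, and 34 of the 37 lay above 0, against 5676 of all 11963 genes. For 23 members all siMESH1+siATF4 arrays lay above all siMESH1 arrays, against 22% of all genes. With housekeeping scaling 4 members were higher and 0 lower, against 2.18% and 4.59% of all genes, the member median was 0.123, and IRF7 lost its call (0.454).

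Between siMESH1+siATF4 and siATF4, which asks what MESH1 silencing did where ATF4 was also silenced, 0 members were called by limma in either direction. In all genes 0.351% were called higher and 1.28% lower. Of the members, 16 (43.2%) had an unadjusted p under 0.05, against 24.3% of all genes, and the methods' t-test with the study's fold limit called 0. The differences ran from -0.48 (IFI6) to 0.37 (GBP1), with a median of -0.020 against -0.001 over all genes. The member median was 0.061 under housekeeping scaling, a shift shared by all genes, and 0.012 without _x_at and _s_at probe sets. Without siMESH1+siATF4 replicate 1 or 3, or without siATF4 replicate 3, 1 member was called lower.

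The 2 single silencings were also set against each other. In siMESH1 against siATF4, 10 members were lower and 0 higher, or 27% of the members against 4.75% of all genes called lower and 3.91% called higher. IFI27 was 3.00-fold lower (log2 -1.59, SE 0.174, adjusted p = 1.3e-05) and ISG20 2.38-fold lower (log2 -1.25, SE 0.109, adjusted p = 1.8e-06). IFITM1 (-0.88), GBP1 (-0.87), IFI35 (-0.70), ISG15 (-0.66), IFI44 (-0.66), IRF7 (-0.60), USP18 (-0.56) and IFI6 (-0.51) followed. The IFI44 value rested on 1 of its probe sets (-1.27 against -0.05 in the other). The member median was -0.211, against 0.003 over all genes, and 32 of the 37 lay below 0, against 5916 of all 11963 genes. Under housekeeping scaling 5 members were lower and 1 higher, against 2.47% and 8.93% of all genes. The member median was then -0.021, after a shift shared by all genes. The call of USP18 was lost without siATF4 replicate 1 (-0.488), and that of IFI6 without siMESH1 replicate 1 (-0.439) or siATF4 replicate 1 (-0.480).

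ISG15, the ubiquitin-like modifier, was called in this comparison alone. It was at -0.02, 0.10 and 0.00 in siMESH1+siATF4, -0.44, -0.28 and -0.53 in siMESH1, 0.17, 0.28 and 0.29 in siATF4, and -0.10, 0.02 and 0.08 in siNT. The siMESH1 arrays lay lowest and the siATF4 arrays highest. HERC5, the ligase that attaches ISG15 to proteins, averaged 0.03 in siMESH1 and 0.16 in siATF4. IFI6, an interferon-induced membrane protein that limits cell death, was at -0.30, -0.40 and -0.58 in siMESH1+siATF4, -0.61, -0.35 and -0.42 in siMESH1, 0.12, 0.05 and -0.01 in siATF4, and -0.10, -0.14 and 0.23 in siNT. The arrays with MESH1 silenced lay below the other 6, and siNT spread around siATF4.

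**Figure D4:**
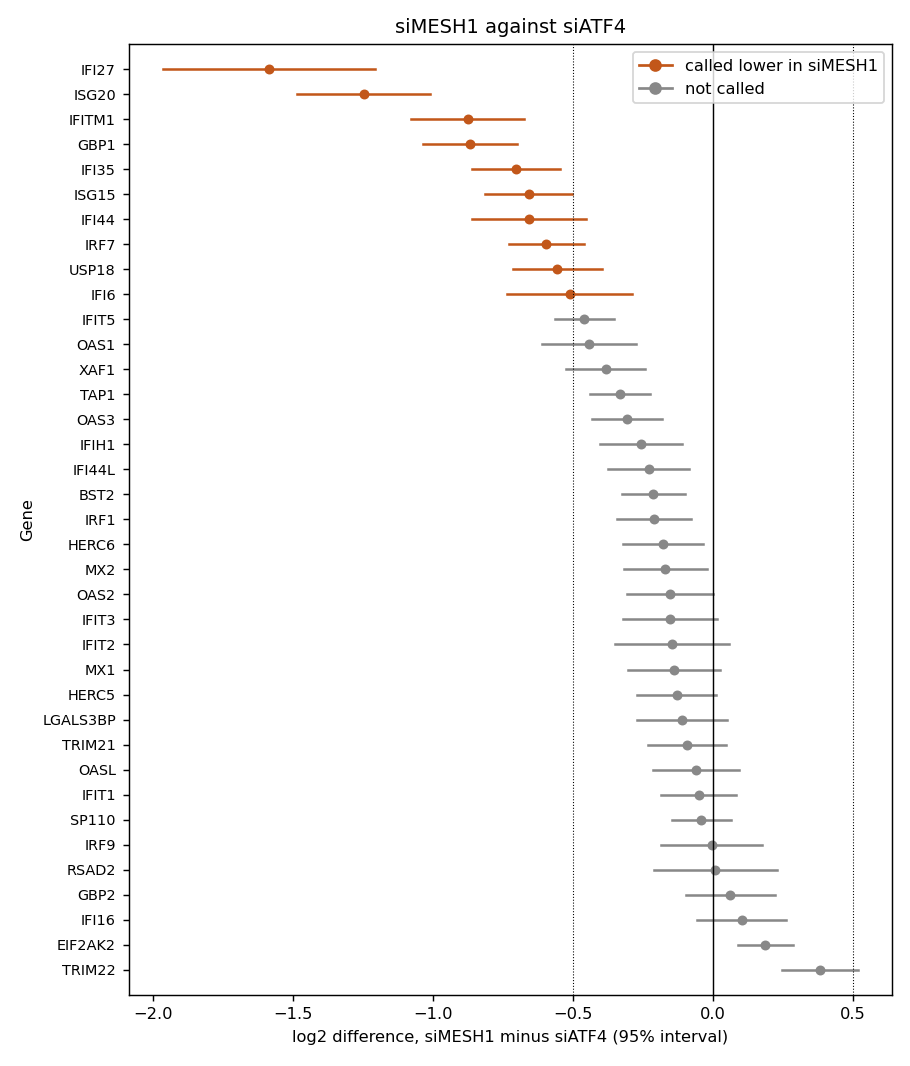
Difference of siMESH1 minus siATF4 for each of the 37 members in log2 units, with its 95% interval from limma; the dotted lines mark the fold limit at 0.5 either way. The 10 called members all lay at -0.51 or lower, and 32 of the 37 lay below 0, against 5916 of all 11963 genes. Under housekeeping scaling, which shifts all genes alike, the member median moved to -0.021.

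Whether the change with MESH1 silencing depended on ATF4 was tested by the interaction, the difference of siMESH1+siATF4 from siATF4 minus that of siMESH1 from siNT. Called higher were 2 members, OAS3 at 0.58 (SE 0.081, adjusted p = 4.4e-04) and USP18 at 0.52 (SE 0.104, adjusted p = 0.0058), and 0 were called lower. That was 5.41% of the members, against 3.46% of all genes higher and 0.853% lower. OAS3 differed by -0.05 with ATF4 silenced and by -0.64 without, and USP18 by -0.23 and -0.75. Under housekeeping scaling 0 members were higher and 3 lower, against 1.51% and 13.3% of all genes. The USP18 call was lost without siMESH1+siATF4 replicate 1 (0.493) or 2 (0.482), siATF4 replicate 2 (0.495) or 3 (0.481), or siNT replicate 1 (0.498). Without siMESH1 replicate 1, 4 members were called. OAS3 was itself at -0.33 in siATF4 against siNT (adjusted p = 8.2e-04), below the fold limit.

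**Figure D5:**
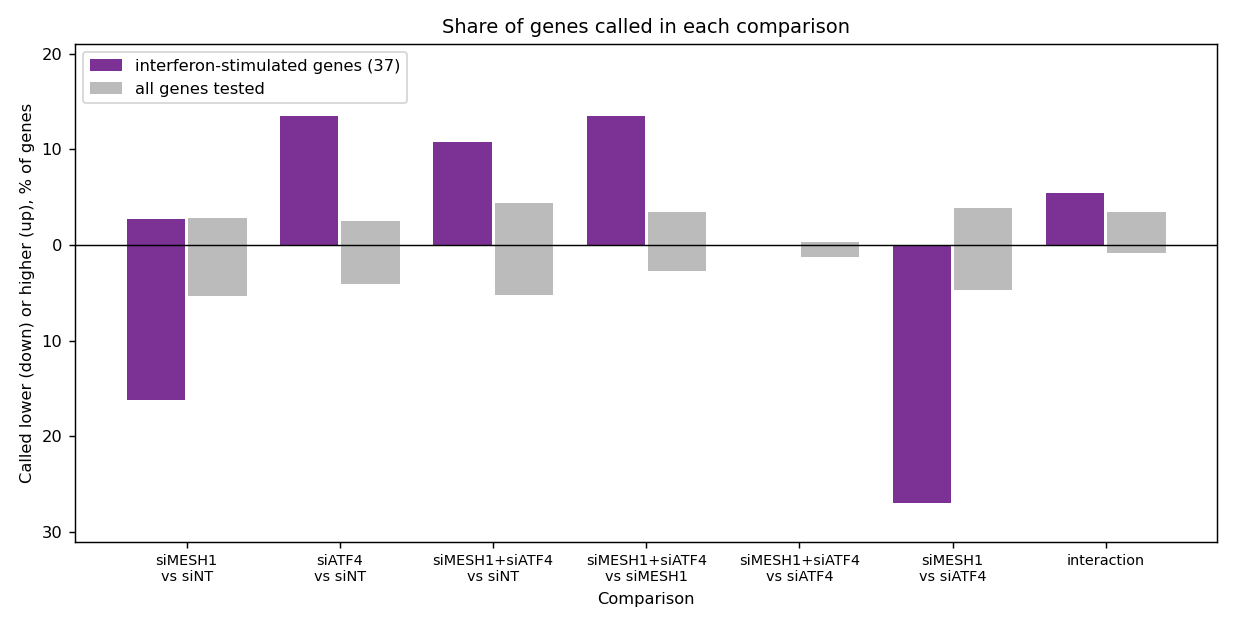
Share of the 37 interferon-stimulated genes (purple) and of all 11963 genes tested (grey) that were called higher (upward bars) or lower (downward bars), in percent, in each of the 7 comparisons. The largest share was the 27% of members lower in siMESH1 than in siATF4 on the deposited scale; under housekeeping scaling that count was 5 lower and 1 higher.

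The 24 members called in no comparison differed less. Against siNT they ran from -0.33 (IFIT5) to 0.24 (IFI16) in siMESH1, from -0.18 (IFIT1) to 0.29 (TAP1) in siATF4, and from -0.20 (IFIT1) to 0.41 (SP110) in siMESH1+siATF4. TAP1 is the transporter that brings peptides to MHC class I. IFIT3 averaged 0.41 in siMESH1+siATF4, -0.04 in siMESH1 and 0.12 in siATF4, and HERC6, a relative of HERC5, 0.32, 0.11 and 0.29 in the same order. XAF1, an antagonist of the apoptosis inhibitor XIAP, averaged 0.18, -0.23 and 0.15, and the secreted glycoprotein LGALS3BP 0.23, 0.10 and 0.21. OAS2 (-0.07, -0.09 and 0.07) and OASL (-0.01, -0.03 and 0.04) lay close to siNT throughout.

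The machinery upstream was measured for 44 of 54 listed pathway genes. Of 14 interferon ligands, 0 were called in any of the 7 comparisons by limma. Of all genes, 0.351% to 5.37% were called in a given direction, and 0 of 14 is near such shares. At an unadjusted p under 0.05 were 0 or 1 ligands in each comparison, against 24.3% to 43.1% of all genes. In siMESH1 against siNT, 2 pathway genes were lower and 0 higher, and the lower share of 4.55% was near the 5.37% of all genes. IFNGR1, a chain of the interferon-gamma receptor, was at -0.02, 0.00 and 0.09 in siMESH1+siATF4, -0.40, -0.63 and -0.63 in siMESH1, 0.13, 0.21 and 0.24 in siATF4, and 0.03, 0.09 and -0.12 in siNT. Its siMESH1 arrays lay below all others, and its difference from siNT was -0.55 (adjusted p = 7.4e-05), which housekeeping scaling brought to -0.187, not called. TLR3, a sensor of double-stranded RNA, differed by -0.52, a call lost without siMESH1 replicate 3 (-0.458), siNT replicate 1 (-0.475) or siNT replicate 2 (-0.489), and under housekeeping scaling (-0.156). In siATF4 against siNT 0 pathway genes were called by limma, with 13 at an unadjusted p under 0.05, or 29.5% against 37.8% of all genes.

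MAVS and TICAM1, the adaptors of the RNA helicase sensors and of TLR3, were higher in siMESH1+siATF4 than in siNT, by 0.60 and 0.56, with 0 pathway genes lower. That pair was 4.55% of the list, near the 4.4% of all genes. Against siMESH1 alone, IFNGR1 (0.58) and MAVS (0.74) were higher, again 4.55% against 3.42% of all genes, and IFNGR1 lost its call under housekeeping scaling (0.468). In siMESH1 against siATF4, IFNGR1 (-0.74), TLR3 (-0.61), IFNAR1 (-0.57) and MAVS (-0.54) were lower and 0 higher, 9.09% of the list against 4.75% of all genes. IFNGR1 alone stayed called under housekeeping scaling, with TLR3 at -0.419, IFNAR1 at -0.382 and MAVS at -0.348. The IFNAR1 call was lost without siMESH1 replicate 3 (-0.478) and the MAVS call without siATF4 replicate 1 (-0.449).

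A second list of 48 interferon-inducible genes outside the members gave 33 with values. In siMESH1 against siNT, 4 were lower and 0 higher: APOL1 (-0.85) and APOL3 (-0.70), apolipoproteins L of innate immunity, PARP12 (-0.62), an antiviral ADP-ribosyltransferase, and SAMHD1 (-0.61), which depletes nucleotides needed by retroviruses. They were 12.1% of the list, against 5.37% of all genes, and all 4 calls were lost under housekeeping scaling (-0.484, -0.333, -0.259 and -0.243). In siATF4, C1S of the complement cascade rose (0.58), while TRIM38 (-0.81) and TNFSF10, the death ligand TRAIL (-0.54), fell; the shares were 3.03% higher and 6.06% lower, against 2.49% and 4.03% of all genes. The TNFSF10 call was lost without siATF4 replicate 2 (-0.482) and without probe sets of the _x_at type (-0.479), as well as under housekeeping scaling (-0.363). In siMESH1+siATF4 against siMESH1, 6 were higher and 2 lower, 18.2% and 6.06% of the list against 3.42% and 2.68% of all genes. RTP4 led the higher genes at 0.83, followed by WARS1, the cytosolic tryptophanyl-tRNA synthetase, at 0.67, C1S at 0.65, TYMP, thymidine phosphorylase, at 0.57, and APOL1 and PARP12, both at 0.52. The calls of TYMP (0.422 without siMESH1+siATF4 replicate 3), APOL1 (0.492 and 0.443 without siMESH1+siATF4 replicate 1 or 2, 0.483 without siMESH1 replicate 3) and PARP12 (0.495 without siMESH1+siATF4 replicate 1, 0.484 without siMESH1 replicate 3) were lost without single arrays and under housekeeping scaling (0.459, 0.413 and 0.409). By the methods' t-test after Benjamini-Hochberg, TYMP (adjusted p = 0.11) and APOL1 (adjusted p = 0.059) were not called either. TRIM38 (-1.16) and TNFSF10 (-0.61) were the lower pair, the second losing its call without _x_at and _s_at probe sets (-0.395). In siMESH1 against siATF4, 7 were lower and 2 higher, 21.2% and 6.06% of the list against 4.75% and 3.91% of all genes. The lower genes were RTP4 (-0.90), APOL1 (-0.82), C1S (-0.70), PARP12 (-0.66), TYMP (-0.63), APOL3 (-0.57) and WARS1 (-0.57), and TRIM38 (1.14) and TNFSF10 (0.63) were higher. Housekeeping scaling ended the calls of PARP12 (-0.468), TYMP (-0.434), APOL3 (-0.378) and WARS1 (-0.376), and TNFSF10 was at 0.414, not called, without _x_at and _s_at probe sets. Against siNT, siMESH1+siATF4 cells had C1S higher (0.53), with TRIM38 (-0.83) and TNFSF10 (-0.52) lower. The C1S call was lost without siNT replicate 3 (0.489), and that of TNFSF10 without siMESH1+siATF4 replicate 2 (-0.476) or without probe sets of the _x_at type (-0.471), and under housekeeping scaling (-0.261). The interaction was called higher for WARS1 (0.60), SAMHD1 (0.59) and APOL1 (0.55), and lower for 0 genes, a higher share of 9.09% against 3.46% of all genes. Under housekeeping scaling none of the 3 passed the fold limit (0.311, 0.303 and 0.271). The call of APOL1 was lost without siMESH1+siATF4 replicate 1 (0.524) or 2 (0.475), siMESH1 replicate 3 (0.516), siATF4 replicate 1 (0.478) or siNT replicate 1 (0.528), by its adjusted p or its size.

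In the antigen presentation list, 15 of 18 genes had values, and calls were confined to 2 subunits of the immunoproteasome. PSMB9 was higher by 0.66 in siMESH1+siATF4 against siMESH1 and lower by 0.69 in siMESH1 against siATF4. PSMB8 was lower by 0.59 in siMESH1+siATF4 against siNT, a call lost under housekeeping scaling (-0.333). Each was 6.67% of the list, against 3.42%, 4.75% and 5.25% of all genes called in the same direction.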

How the data were processed

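Total RNA from the 12 RCC4 cultures (4 groups, 3 arrays each) was hybridised to Affymetrix human arrays, whose number limits the precision. The authors processed the scanned arrays with RMA in Affymetrix Expression Console (versions not given in the sources used here) and deposited log2 values minus the siNT mean of each probe set. The siNT mean lay within 1.20e-04 of 0 for each of 22277 probe sets, values ran from -3.77 to 3.41, and no gene could be filtered on its level. RMA tends to compress the differences of weakly expressed genes.

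The 62 control probe sets were left out. Per the platform table, 19064 probe sets name 1 gene, and averaging these gave 11963 genes; 1043 name several and were not used for gene means. limma 3.58.1 in R 4.3.3 (lmFit, eBayes, 8 residual degrees of freedom) was fitted to all 12 arrays with 1 mean per group and no block. P-values were adjusted by Benjamini-Hochberg over all genes. Calls needed an adjusted p under 0.05 and a log2 difference of at least 0.5. Called members are given on every array, other members by group with the extremes, and genes of the pathway and inducible lists where called; other genes named (antigen presentation, marker and housekeeping genes) were chosen after their values were seen. Single probe sets are given for IFI44, whose probe sets disagreed where it was called, and for GBP1, ISG20 and IFI16. Of 11 members with several probe sets, 2 to 4 had probe sets of opposite sign in a comparison. The members and lists were chosen with earlier results of these data known. The fit was tested on simulated data. Promoter windows came from RefSeq (GRCh38.p14), the first listed window per gene. Alternatives were array median and housekeeping centring, fewer probe sets, no fold minimum, fits of only the 2 groups compared, the methods' t-test, a replicate block and each array left out in turn. Pathway genes without a probe set that names them alone, and HDDC3 (MESH1), were not analysed here.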

Additional observations from a re-analysis of the deposited data

Results flagged for a closer look

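The interaction test in limma called 2 members higher, for a change with MESH1 silencing that differed with and without ATF4 silencing. They were 5.41% of the members, near the 3.46% of all genes called higher. For OAS3 the interaction was 0.58 (adjusted p = 4.4e-04). Its difference was -0.05 for siMESH1+siATF4 against siATF4 and -0.64 for siMESH1 against siNT. For USP18 the interaction was 0.52 (adjusted p = 0.0058), from -0.23 and -0.75 for the same pairs. The USP18 call was lost in several fits that left out 1 array (0.481 to 0.498). Scaled on housekeeping genes, OAS3 was at 0.298 and USP18 at 0.238, neither past the fold limit. Groups of 3 arrays are too small for a test of single outlying arrays.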

How the results depend on the processing

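Of 33 called member values, 32 were kept with array median centring, 19 with housekeeping centring, 33 with the replicate block, 33 without _x_at probe sets, and 382 of 396 over the 12 fits that each left out 1 array. Of 31 with a two-group form, 31 were kept with only the 2 groups compared and with the methods' t-test, and 30 after its Benjamini-Hochberg adjustment, where ISG20 in siMESH1 had an adjusted p of 0.062. Without _x_at and _s_at probe sets 28 members remained, with 22 of the called values, and 20 of these were kept. The exceptions were IFI44 in siMESH1 against siNT, which turned to 0.008, and in siMESH1 against siATF4 (-0.046). With group means taken off, 0 of 18 same-numbered pairs of arrays correlated over 0.1 (-0.191 to 0.095). This cannot show whether same-numbered cultures were handled together. The replicate block gave 7 called members for siMESH1, 5 for siATF4 and 4 for siMESH1+siATF4 against siNT. It gave 5 for siMESH1+siATF4 against siMESH1 and 0 for siMESH1+siATF4 against siATF4. For siMESH1 against siATF4 it gave 10 and for the interaction 2, all as without it. With no fold minimum the counts, in that order, were 18, 13, 22, 23, 8, 21 and 7. Of these, 4, 11, 16, 21, 4, 2 and 5 were higher and 14, 2, 6, 2, 4, 19 and 2 lower. Housekeeping centring gave 13 for siMESH1+siATF4 against siNT and 6 for siMESH1 against siATF4. Without _x_at and _s_at probe sets, 3 of the 28 members were lower for siMESH1 against siNT and 5 lower for siMESH1 against siATF4. For siMESH1+siATF4 against siMESH1, 3 of the 28 were higher. The called members IRF7, ISG15, IFITM1, TRIM22 and IFI35 had no probe set left in this setting and were not measured. Leaving out each array in turn gave 0 to 1 for siMESH1+siATF4 against siATF4 and 1 to 4 for the interaction. Shares of all genes were not computed with no fold minimum, with fewer probe sets or with an array left out. The cause was not tested. Since the deposited values are differences, signal over background is unknown and a weakly expressed member cannot be told from one that did not change.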
